A study of Mus musculus with 12 samples.

Results

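Car4 encodes carbonic anhydrase IV, an enzyme held on the outer face of the cell membrane by a lipid (GPI) anchor. It was followed here through the single clone on the array whose only annotated gene is Car4, 1 of 15600 clones, spotted as 2 adjacent spots. Carbonic anhydrases are zinc enzymes that interconvert carbon dioxide and water with bicarbonate and a proton. In the kidney, membrane-bound forms that face the tubule lumen speed the handling of filtered bicarbonate. Cytosolic forms supply protons and bicarbonate to transporters inside the cell. Car4 protein is known from the membranes of proximal tubule and thick ascending limb cells and from capillaries of several organs.

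The series compared renal medulla, the deep kidney zone in which urine is concentrated, of 3 water-restricted mice and 3 control mice. The sources used here give no strain, sex, age or length of the restriction. Amplified RNA of 1 mouse of each group was hybridised on every 2-colour array, so that each water-restricted mouse met each control mouse. Of these 9 pairs of mice, 3 were hybridised in both dye orientations, which gives 12 arrays. On 6 of them the water-restricted mouse carried the dye Alexa Fluor 546 (546-labelled arrays below), and on 6 it carried Alexa Fluor 647 (647-labelled arrays). Each deposited value is a log2 ratio of both channels, so no absolute level of Car4 was measured and the labelled tissue could not be checked against its markers. In whole tissue, a change in the number of cells of a type and a change in RNA per cell cannot be told apart.

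Medians of the ratios ran from -0.04 to 0.06 per array. Ratios spread with an SD of 0.515 to 0.764 over the spots of 11 arrays, and the array of water-restricted mouse 2 and control mouse 2 stood apart with an SD of 1.21. The sources do not say which dye is the numerator. Values below were turned to 1 orientation by changing the sign of the 6 647-labelled arrays. A positive value therefore means higher in water restriction if the ratio is Alexa Fluor 546 over 647, and lower if it is the reverse. Across clones, the deposited ratios of both arrays of a swapped pair correlated at -0.14, 0.13 and -0.13, so the turning itself rests on small values.

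On the arrays as deposited, Car4 was above 0 on 6 of 6 546-labelled arrays and below 0 on 6 of 6 647-labelled arrays. Turned, the mean of both spots was thus positive on 12 of 12 arrays. A single sign on all 12 turned arrays, to either side, occurred in 2.05% of the 6786 genes. Car4 was selected on its fitted difference between the groups over these arrays, so this sign, and the differences between the groups given for Car4 below, are descriptions without a test. Read without any turning, as if the authors had already done it, the fitted difference would be -0.14, with arrays of swapped pairs at a weight of 0.5, from ratios of opposite sign in the dye orientations.

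Array by array, water-restricted mouse 1 gave turned log2 ratios of 0.56 with control mouse 1, 1.54 with control mouse 2, and 1.24 and 1.46 with control mouse 3. Water-restricted mouse 2 gave 0.54 and 0.26 with control mouse 1, 1.83 with control mouse 2 and 1.07 with control mouse 3. Water-restricted mouse 3 gave 1.97 with control mouse 1, 0.11 and 2.14 with control mouse 2, and 1.91 with control mouse 3. Apart from 1 array with control mouse 2, the smallest ratios were those of water-restricted mice 1 and 2 with control mouse 1, and water-restricted mouse 3 gave the 3 largest ratios of all. Where a pair has 2 values, the first is from the 546-labelled array.

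**Figure D1:**
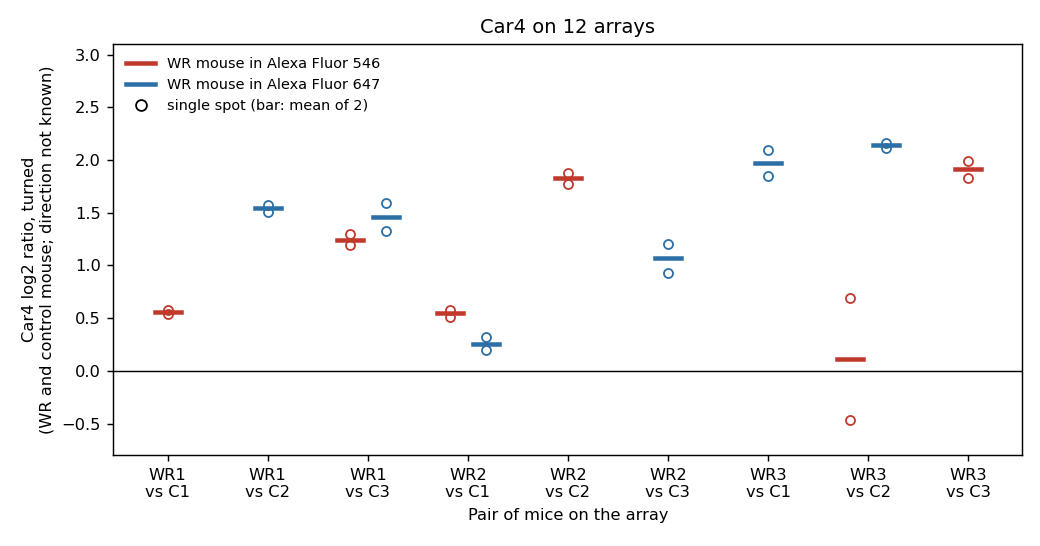
Turned log2 ratio of Car4 (y axis) for each pair of mice (x axis; WR, water-restricted; C, control), with open circles for the 2 spots, a bar for their mean, and colour for the dye orientation. The mean is above 0 on all 12 arrays, and the spots stand far apart on 1 array, the 546-labelled array of WR3 and C2.

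Both spots of Car4 followed each other closely on 11 arrays. Their gap ranged from 0.04 to 0.28 there, and over the 12 arrays the spots correlated at 0.90 after turning. The exception was the 546-labelled array of water-restricted mouse 3 and control mouse 2. On that array the spots read 0.69 and -0.47, a gap of 1.16 that only 5.44% of clones on the same array exceeded, and their mean of 0.11 is the smallest Car4 ratio of the series. The same mice in the reverse orientation gave 2.16 and 2.12 after turning, a gap of 0.04. Which of these arrays is nearer to the mice was not tested.

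A level for each mouse was fitted to the arrays on a log2 scale on which the mean of the 6 mice is 0. Car4 had levels of 0.50, 0.45 and 1.02 in water-restricted mice 1, 2 and 3, and of -0.32, -0.84 and -0.79 in control mice 1, 2 and 3. The groups did not overlap, with a gap of 0.77 between the nearest mice, which is larger than the range of 0.57 within the water-restricted mice and of 0.52 within the control mice. Levels that do not overlap were found in 9.8% of genes to either side, and in 5.94% with the water-restricted mice on the positive side, as for Car4. The mean level was 0.65 ± 0.32 in water-restricted mice and -0.65 ± 0.29 in control mice (SD, n = 3 each). The difference was 1.31 (SE 0.22) on the log2 scale, a 2.47-fold difference whose direction is not known. By size it was the 10th of 6786 genes, and 95% of all genes' differences lay between -0.49 and 0.54.

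In the order of levels, water-restricted mice 1 and 2 differed by 0.05 (SE 0.43) and control mice 2 and 3 by -0.05 (SE 0.43), far less than the error of the fit. Water-restricted mouse 3 stood highest on this scale, with mouse 1 minus mouse 3 at -0.52 (SE 0.43). Control mouse 1 stood nearest to the water-restricted mice, at 0.52 (SE 0.43) above control mouse 2 and 0.47 (SE 0.43) above control mouse 3. The comparison between mice of 1 group is separate from the contrast for which Car4 was chosen, and it could be tested. Over these contrasts together, limma's F for Car4 was 0.99 (adjusted p = 0.614), so differences between mice of the same group were not detectable over the error between arrays. For all genes the same test called 24, which is 0.354%, and 14 with all arrays weighing the same.

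The single array with discordant spots widened the error of Car4. Its removal was added after the data were seen. The residual SD of Car4 between arrays was 0.63, against a median of 0.29 over all genes, and 6.85% of genes had a larger one. Without that array the residual SD was 0.32, and the levels were 0.44, 0.39 and 1.30 in water-restricted mice 1, 2 and 3 and -0.27, -1.13 and -0.73 in control mice 1, 2 and 3. The difference was then 1.42, and the F of 6.71 still missed the threshold (limma adjusted p = 0.201).

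Removing instead the array of water-restricted mouse 2 and control mouse 2 lowered the difference to 1.08 and the residual SD to 0.45. In that fit water-restricted mouse 2 had a level of -0.12, against 0.61 and 1.13 in water-restricted mice 1 and 3. The control levels were -0.44, -0.28 and -0.90 for mice 1, 2 and 3. The groups still did not overlap, but water-restricted mouse 2 lay close to control mouse 2.

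The dye orientation was compared next. The turned ratio of Car4 averaged 1.03 ± 0.74 on 546-labelled arrays and 1.41 ± 0.68 on 647-labelled arrays (SD, n = 6 arrays each, arrays sharing mice). The fitted dye term was -0.14 (SE 0.17, limma adjusted p = 0.624), a test independent of the contrast between the groups in the turned values. It takes the turning as right. Read without turning, the same -0.14 would be the difference between the groups. The opposite signs of Car4 in the dye orientations would then be a dye effect. This test therefore cannot show whether the turning is right. A dye term passed this test in 11.3% of genes, 769 in number, but in 449 with equal weights, in 355 without the array with discordant Car4 spots, and in 0 to 11 when 1 mouse was left out.

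Of the 15 other listed mouse carbonic anhydrase genes, 6 were measured, each by 1 clone. Car2, the main cytosolic form of the kidney, was not among them. Over the 12 turned arrays, the spots correlated at 0.19 for Car12, 0.41 for Car14, and 0.71 to 0.94 for Car7, Car9, Car1 and Car8, against 0.90 for Car4. The levels of the groups overlapped in all 6, as they did in most genes, since 9.8% of all genes had levels without overlap. Between the groups, 0 of the 6 had an adjusted or an unadjusted p under 0.05 (limma), and over all genes 0 passed, which is 0%, with 337 genes at an unadjusted p under 0.05. With mice as random effects, a more lenient limma fit, 112 genes (1.65%) passed and 0 of these 6. On the same side as Car4 were 3 of the 6, against 50.7% of all genes, and the median difference of the 6 was 0.05, with a median of 0.00 over all genes.

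Among membrane-bound forms, Car9, a transmembrane enzyme induced by hypoxia, had 0.61 (SE 0.49, limma adjusted p = 0.996). Its levels were -0.34, 1.10 and 0.16 in water-restricted mice 1, 2 and 3 and 0.40, -1.36 and 0.04 in control mice 1, 2 and 3, so that the spread within each group covered the other. The array of water-restricted mouse 2 and control mouse 2 read 3.75 for Car9, and without it the difference was 0.25; it was 0.22 without that water-restricted mouse and 0.09 without that control mouse. Car14, another transmembrane form found on tubule membranes, was positive on 10 of 12 arrays and had 0.39 (SE 0.22, limma adjusted p = 0.996), and 0.19 without water-restricted mouse 1. Its levels of 0.58, 0.12 and -0.12 in water-restricted mice overlapped with -0.04, -0.46 and -0.08 in control mice. Car12, a transmembrane enzyme of collecting duct cells, had -0.07 (SE 0.17), with array ratios from -0.45 to 0.53.

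The intracellular forms were centred near 0. Car7, a cytosolic enzyme, had 0.17 (SE 0.29), and Car8, a relative without catalytic activity that binds the inositol trisphosphate receptor, had -0.08 (SE 0.26). Car1, the abundant cytosolic enzyme of red blood cells, had -0.20 (SE 0.45), and its array ratios ran from -3.01 to 1.44. A dye term of -0.65 passed for Car1 (limma adjusted p = 0.0290) and for none of the other 5. No test of Car4 against these genes was made, since Car4 was chosen for its difference.

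**Figure D2:**
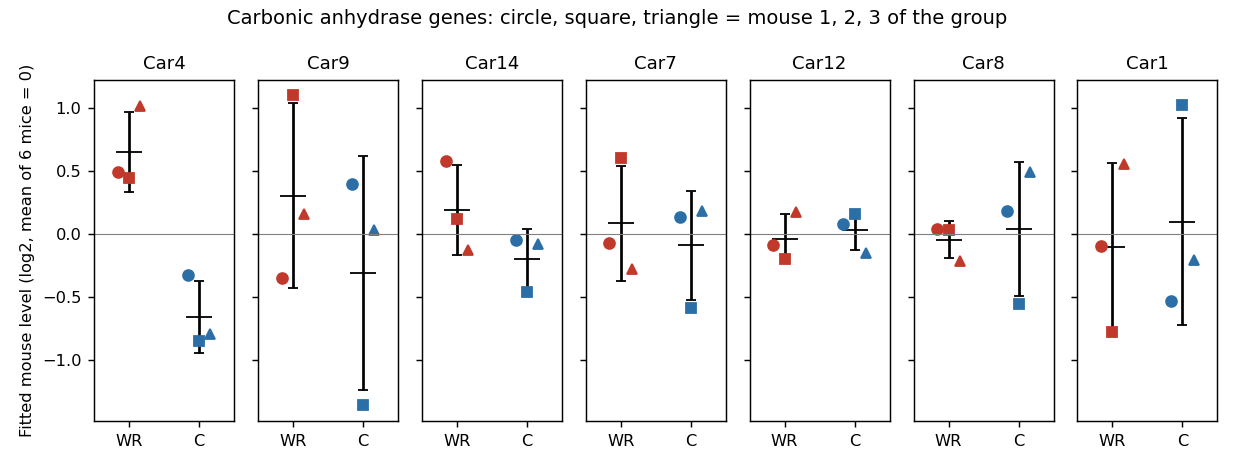
Fitted level of each mouse on a log2 scale with a mean of 0 (y axis) for the 7 measured carbonic anhydrase genes, water-restricted mice (WR) left of control mice (C); symbols mark the mouse, and bars show mean and SD of 3 mice. The levels of Car4 do not overlap between the groups, as in 9.8% of all genes, and those of the other 6 do.

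Bicarbonate transporters, sodium-proton exchangers and their regulators, which carry the ions that carbonic anhydrases produce, lay on both sides. Of 24 listed genes 6 were measured, 4 positive and 2 negative, with a median of 0.22. Of these 0 passed the threshold, as did 0 of all 6786 genes. The highest was Slc9a3r1, a scaffold for transporters of the brush border, at 0.26 (SE 0.21), with 0.09 to 0.46 when single mice were left out. The lowest was Slc4a1, the chloride-bicarbonate exchanger of acid-secreting intercalated cells and of red blood cells, at -0.74 (SE 0.24, limma adjusted p = 0.771). Slc4a1 had -0.60, -0.11 and -0.40 in water-restricted mice and 0.20, 0.06 and 0.86 in control mice, and it was the 1 gene of the 6 without overlap, against 9.8% of all genes. It also carried a dye term of 0.55 that passed the test (limma adjusted p = 0.0181).

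Subunits of the proton pump, which secretes protons into the lumen and into vesicles, were mostly on the side of Car4 with small differences. Of 10 measured genes 8 were positive, with a median of 0.16. Levels without overlap on that side were found in 4 of the 10, against 5.94% of genes. This list and those below were chosen with earlier results of these data known, so such shares are descriptions without a test. The ends were Atp6v0b at 0.46 (SE 0.17, limma adjusted p = 0.884) and Atp6v0a1 at -0.22 (SE 0.24). For Atp6v1b2 the 3 clones gave 0.36, 0.45 and -0.18. A dye term passed for 1 gene of this list, Atp6v1e1, at 0.38 (limma adjusted p = 0.0412).

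Genes for the production and transport of ammonia, the main buffer that carries acid into urine, were all 6 positive among the 6 measured of 15 listed. Their median was 0.37, and 3 of the 6 had levels without overlap on that side, against 5.94% of genes. Glul, glutamine synthetase, was the highest at 0.65 (SE 0.22, limma adjusted p = 0.771), with 0.40, 0.02 and 0.55 in water-restricted mice and -0.01, -0.31 and -0.66 in control mice. Slc3a2, the heavy chain of amino acid exchangers, was the lowest at 0.13 (SE 0.22). The other 4 measured genes, Mdh2, Glud1, Mdh1 and Ogdh, encode mitochondrial and cytosolic enzymes that many cell types use.

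Genes for the synthesis and transfer of the GPI anchor, the lipid that ties Car4 to the membrane, were 6 positive and 3 negative of 9 measured. Their median was 0.09. The ends were Pigf, which acts in a late step of anchor assembly, at 0.51 (SE 0.38, limma adjusted p = 0.996), and Dpm2, a subunit of the mannose donor synthase, at -0.16 (SE 0.21). The difference of Pigf was 0.22 once the array that pairs water-restricted mouse 2 with control mouse 2 was left out, and it was 0.14 without that water-restricted mouse and 0.15 without that control mouse. Levels without overlap were found in 0 of the 9, against 9.8% of all genes.

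Markers of the cells that could carry Car4 were sparse on the array. Of 31 listed proximal tubule genes 5 were measured, 4 of them positive, with a median difference of 1.05. The highest was Gatm, which makes a creatine precursor, at 1.48 (SE 0.52, limma adjusted p = 0.851), and the lowest Cyp7b1, a sterol hydroxylase, at -0.08. Levels without overlap on the positive side were found in 2 of the 5, against 5.94% of genes. This is a description, since the list was chosen with earlier results of these data known. The mean level of the 5 was 0.39, 0.43 and 0.54 in water-restricted mice 1, 2 and 3 and 0.22, -0.92 and -0.66 in control mice 1, 2 and 3. Control mouse 1 was thus the highest control for this list as for Car4, although for Car4 it differed from the other control mice by no more than the error allows. For Gatm and for Slc22a7, an organic anion transporter, mice of the same group did differ (limma F, adjusted p = 0.000694 and 0.00863). The part of proximal tubule content in the Car4 difference was not tested.

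The other cell types were followed in the same way. Wnk1, a kinase that regulates salt transport, was the single measured gene of 12 in the thick ascending limb list, at 0.05 (SE 0.19). Slc12a2, a sodium-potassium-chloride cotransporter, was the single one of 10 in the thin limb list, at -0.06 (SE 0.16). With 1 gene each, neither list can show whether the content of its segment differed. Endothelial markers were 2 positive and 3 negative of 5 measured, from Esam, a junction protein, at 0.27 to Cav1, or caveolin, at -0.59, with a median of -0.01. All 3 measured intercalated cell markers were negative, from Kit at -0.05 to Slc4a1 at -0.74, with a median of -0.07. All 6 measured principal cell markers were negative, with a median of -0.44, from Fxyd3 at -0.02 to Fxyd4, a sodium pump regulator, at -1.10 (limma adjusted p = 0.553). All 4 measured erythroid genes were negative too, with a median of -0.49, from Car1 at -0.20 to the globin Hbb-b1 at -0.999 (adjusted p = 0.702). On the negative side, levels without overlap were found in 3 of 6 principal cell, 2 of 4 erythroid, 2 of 5 endothelial and 1 of 3 intercalated cell genes, against 3.86% of all genes. Slc4a1 counts in the erythroid and in the intercalated share. The lists were chosen with earlier results of these data known, so these shares are descriptions without a test. Car1, Car12 and Slc4a1 each stand in more than 1 list. Of the 58 measured genes of the lists other than Car4, 0 passed the threshold between the groups, as did 0 of all 6786 genes. With mice as random effects 9 of the 58 passed, against 1.65% of all genes (limma adjusted p from 0.00183 to 0.0423). These were Glul, Miox, Gatm and Lrp2 on the positive side and Fxyd4, Krt18, Gata3, Hbb-b1 and Cav1 on the negative side. As the lists were chosen with earlier results known, the share passing in this fit is also a description and no test of the lists. That fit sets 1 ratio of variance between mice to error variance, 0.12, for all genes. Arrays that share mice then count almost as separate. For Gatm, mice of the same group differed (limma F, adjusted p = 0.000694). For Hbb-b1, Lrp2, Miox and Cav1 this F was 10.3, 8.61, 6.67 and 6.65 and missed the threshold (limma adjusted p from 0.0868 to 0.142). It was lower for Glul, Fxyd4, Gata3 and Krt18. None of these 9 genes passed in the test on mouse levels, so their calls are not firm. A dye term passed for Krt8, Krt18, Slc14a1, Hbb-b1, Gatm and Slc22a7 as well as for the 3 genes named above, in the fit that called 11.3% of all genes.

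**Figure D3:**
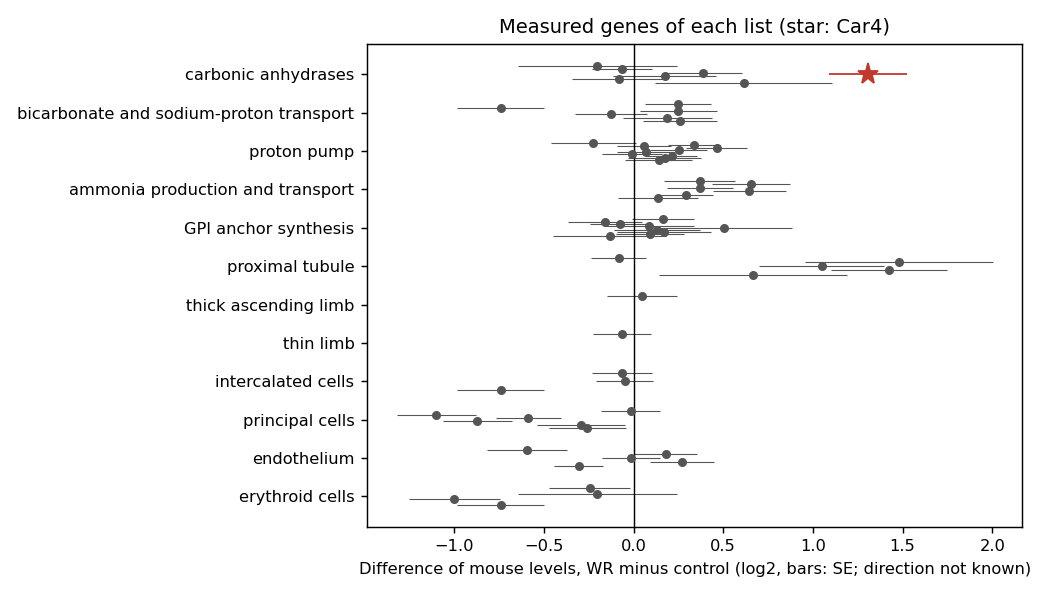
Difference of fitted levels, water-restricted minus control mice, on the log2 scale (x axis, bars show SE, direction not known) for every measured gene of 5 pathway lists and 7 cell type marker lists (y axis). Car4, the star, lies at 1.31, in the range of 4 proximal tubule genes, and the other carbonic anhydrases lie between -0.20 and 0.61.

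Genes whose turned ratios moved most like Car4 from array to array were chosen by correlation. Of the 12 described here 0 passed the limma test between the groups, as did 0 of all 6786 genes. The Pearson correlation over the 12 arrays was highest for Tmed10, a cargo receptor of the early secretory pathway, at 0.80. After it came Ralb, a small GTPase, at 0.78, Dnajc13, an endosomal chaperone, at 0.76, and Morc3, a nuclear ATPase, at 0.75. Then followed Gstm5, a glutathione transferase, and Hps4, which acts in the formation of lysosome-related organelles, both at 0.74, Eme1, a DNA endonuclease subunit, at 0.74, and Retreg1, a receptor for turnover of the endoplasmic reticulum, at 0.73. The most opposite were Zfp692, a zinc finger protein, at -0.90, Spdl1, a spindle protein, at -0.82, Foxn2, a forkhead transcription factor, at -0.80, and Samd8, an enzyme of sphingolipid synthesis, at -0.80.

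These correlations describe arrays that share 6 mice and are therefore not independent. Car4 itself did not differ detectably between mice of the same group (limma F of 0.99), and its residual SD between arrays was 0.63. How far array error enters these correlations was not tested. Over all genes, 95% of correlations with Car4 lay between -0.53 and 0.53. Without the arrays of the 2 smallest Car4 ratios, which lie farthest from its median, the correlation was 0.80 for Tmed10, 0.57 for Hps4 and -0.87 for Zfp692. Tmed10 itself differed by 0.00 (SE 0.14) between the groups and ranged over the arrays from -0.35 to 0.27. Zfp692 had -0.23 (SE 0.16) and ranged from -0.85 to 0.62, with its highest ratio on the array where the spots of Car4 disagreed. Gstm5, at 0.49 (SE 0.15, limma adjusted p = 0.771), was positive on all arrays, from 0.18 to 0.96.

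**Figure D4:**
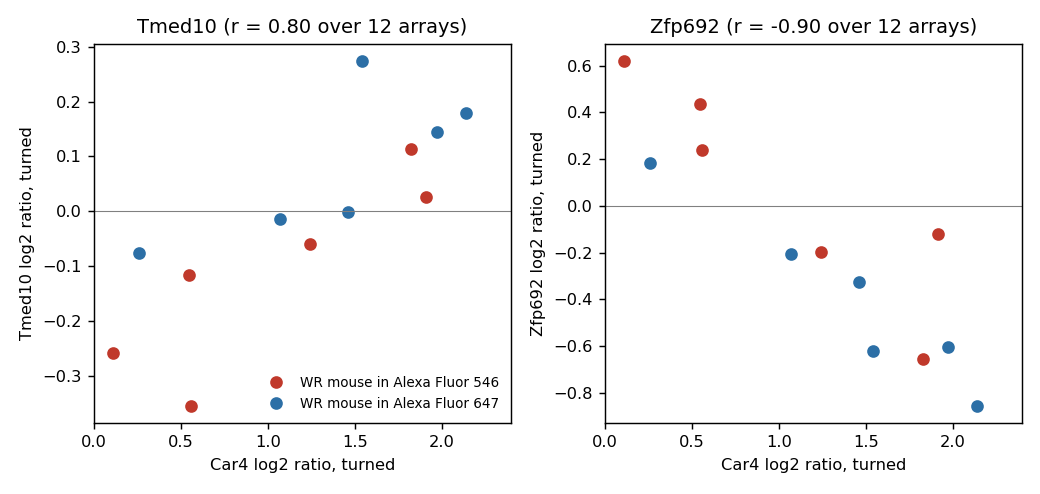
Turned log2 ratio of Tmed10 (left, y axis) and Zfp692 (right, y axis) against that of Car4 (x axis) on 12 arrays, with colour for the dye orientation. Tmed10 runs with Car4 (r = 0.80) over a narrow range around 0, and Zfp692 runs against it (r = -0.90).

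Over the 6 fitted mouse levels instead, a view added after the values were seen, the genes with the highest correlation were Echdc2, a relative of enoyl-CoA hydratases, at 0.99, and Sdha, a subunit of succinate dehydrogenase, Ahcy, which breaks down S-adenosylhomocysteine, Prelid3b, a mitochondrial lipid transfer protein, and Neu1, a lysosomal sialidase, all at 0.98. Because the levels of Car4 fall into its separate groups, such values largely restate the difference between the groups. The differences of these 5 genes ran from 0.18 for Sdha to 0.98 for Neu1, all smaller than that of Car4. Neu1 had 0.31, 0.27 and 0.88 in water-restricted mice and -0.12, -0.84 and -0.50 in control mice.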

How the data were processed

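The values deposited by the authors are log2 ratios between the channels of each array, complete for 31200 spots on 12 arrays. The log base was read from the values. Scanner signals, background correction and normalization are not described in the sources used here, so signal over background could not be examined, and the number of arrays limits the precision. Genes came from the platform annotation. Adjacent spots of a clone were averaged, and clones of 1 gene were averaged to 6786 genes, with symbols updated through a RefSeq table (GRCm38.p6, names only).

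Mouse levels were fitted by weighted least squares with a dye term, arrays of a swapped pair weighing 0.5 each. Levels of 3 against 3 mice were compared with limma 3.58.1 in R 4.3.3 (lmFit, eBayes, Benjamini-Hochberg over all genes, threshold 0.05). Contrasts within a group, and the dye term, were tested on the 12 arrays (limma), where the error is technical and halved weights make the test lenient. The procedure was tested on simulated data. Car4, the gene lists and tests were chosen with earlier results of these data known. Named genes were the carbonic anhydrases, the ends of each list, any member past a threshold, and the 8 highest and 4 lowest correlations with Car4. Alternatives changed centring, scaling, weights, dye term, turning, arrays, mice, clones and the error model.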

Additional observations from a re-analysis of the deposited data

Results flagged for a closer look

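Among the 7 carbonic anhydrase genes, the 6 arrays of each dye orientation were checked for a value far from the others, 14 groups in all, of which chance flags about 1 in 20. Both values found lie on the array of water-restricted mouse 2 and control mouse 2, whose ratios spread most. Car9 read 3.75 there, with the next highest array at 0.39. Car8 read 1.04 there, with the next highest at -0.71. No value of Car4 was found by this check.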

How the results depend on the processing

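For Car4 the difference of 1.31 was recomputed under 19 alternatives, of which 2 (median over its 1 clone, no dye term) return it by construction. It kept its sign in 16 of the other 17, with 0.96 on the 3 swapped pairs alone. Reading the ratios as already turned gave -0.14. Leaving out single mice gave 1.12 to 1.47, and single spots 1.33 and 1.28. Genes called between the groups numbered 0, 1 on the 647-labelled arrays alone, 1 on the swapped pairs alone, 112 with mice as random effects, and 0 without any single mouse. Deviations of same-numbered mice correlated at -0.01, -0.54 and -0.11. The array that holds both such mice enters their levels with opposite sign, so these values cannot show whether the numbers pair mice. With the mouse number as a replicate block 0 genes were called. Genes called between mice of the same group numbered 24, and 14 with equal weights, 198 when the widely spread array of water-restricted mouse 2 was dropped, 10 without the array with discordant Car4 spots (added after seeing the data), 4 without the dye term, and 0 to 29 without single mice. The swapped pairs alone cannot give this test. Dye terms numbered 769, and 449 with equal weights, 355 without the discordant array, 1 on the swapped pairs, and 0 to 11 without single mice, with fewer arrays. The dye term of Car4 was 0.0040 without the discordant array and -0.49 to 0.11 without single mice. The causes were not tested.

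Of 432 recomputed differences of 24 other named genes, 39 changed sign and 0 passed the threshold. Leaving out the dye term or adding the replicate block cannot move a difference. The median over clones can move only that of Wnk1 (0.046 to 0.098), since no other of these genes has more than 2 clones. The 432 do not hold the fit with mice as random effects and 1 variance ratio for all genes. In that fit 5 of the 24 passed (Fxyd4, Hbb-b1, Glul, Gatm and Cav1). This count is a description, since the 24 hold the ends of each list. Changes of sign on the 647-labelled arrays alone were those of Car1 (0.39), Car12 (0.13), Car7 (-0.024), Car8 (0.27), Cyp7b1 (0.043), Slc12a2 (0.058), Slc9a3r1 (-0.064) and Wnk1 (-0.088), and on the 546-labelled arrays Fxyd3 (0.26). Without turning they were Dpm2 (0.17), Esam (-0.067), Fxyd3 (0.20), Fxyd4 (0.059), Gatm (-0.32), Hbb-b1 (0.37), Slc3a2 (-0.044) and Slc4a1 (0.55). On the swapped pairs they were Car12 (0.020), Cyp7b1 (0.071) and Fxyd3 (0.26), with equal weights Fxyd3 (0.051), and with the widely spread array dropped Car7 (-0.015), Kit (0.047) and Wnk1 (-0.061). Leaving out single mice gave -0.53 to 0.26 for Car1, -0.083 to 0.36 for Car7, -0.38 to 0.14 for Car8, -0.17 to 0.015 for Car12, -0.068 to 0.24 for Wnk1, -0.14 to 0.054 for Slc12a2, -0.16 to 0.029 for Kit, -0.083 to 0.11 for Fxyd3, -0.38 to 0.031 for Atp6v0a1 and -0.0084 to 0.38 for Slc3a2.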
